A study of Mus musculus with 6 samples.

Results

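The genes described here encode the machinery that copies DNA and the enzymes that supply its deoxynucleotides: 45 named genes, of which 44 had a probe set annotated to that gene alone, out of 18193 genes with such a probe set. On the probe set used for each gene, all 44 were above the filter on dim values (the 40th percentile of the array) on all 6 arrays. None of these probe sets passed through 1 cross only. Chaf1a, a subunit of chromatin assembly factor 1, is not analysed here. Where a gene had several probe sets, the brightest one by its mean over both crosses stands for it, and the others served as a check.

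Thymus came from adult female F1 mice of 2 crosses, (AKR/J x FVB/NJ)F1, called the AKR cross, and (DBA/2J x FVB/NJ)F1, called the DBA cross, with 3 arrays each. Every mouse of both crosses carries 1 FVB/NJ genome, so the crosses differ in the other parent. Homozygous effects of AKR/J or DBA/2J alleles that FVB/NJ does not carry cannot be seen in them. Basal expression was the question, and the labels name no treatment other than the Avertin anaesthesia at death, no age beyond adult and no sorting of cells. Nothing in the labels states that each array had a mouse of its own, so the replicate spread behind the p-values may be technical. Differences are AKR cross minus DBA cross of log2 values, and a gene is called higher or lower where limma gave an adjusted p under 0.05 over the 12855 genes tested.

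In a dividing cell the origin recognition complex, Cdc6 and Cdt1 load the MCM helicase on DNA before S phase, Cdc45 and the GINS complex switch it on, and polymerases alpha, delta and epsilon copy the strands behind it. E2F transcription factors are known to switch on many of these genes together at the start of S phase. In the thymus most division takes place in immature thymocytes, as they proliferate before and after passing selection for a T cell receptor beta chain. In whole tissue, more dividing cells and more of each RNA per cell cannot be told apart.

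Replication genes leaned to the AKR cross by small amounts. Of 44 genes, limma called 18 (40.9%) higher in AKR thymus and 0 lower, and left 26 uncalled. Over all genes tested, 12.5% were called higher, 11.5% lower and 24% in either direction. At an unadjusted p under 0.05, 24 genes (54.5%) were higher and 1 (2.27%) was lower, against 20.5% and 17.3% of all genes. The median difference was 0.21 over the 44 genes and 0.03 over all genes tested, and 38 of 44 (86.4%) had a difference above 0, against 55.3% of all genes. All 3 AKR arrays lay above all 3 DBA arrays for 25 of 44 genes (56.8%), against 24.5% of all genes, and 0 had all AKR arrays below, against 19.4% of all genes. Each of the 44 differed by less than 1.5-fold. The steps of replication were not alike in how many genes were called: helicase activation held 2 of 4 (median difference 0.31), lagging-strand maturation 2 of 2 (0.36), the clamp and its loader 3 of 6, and origin recognition and loading 1 of 5 (0.07). Differences between the steps were not tested.

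The arrays did not contribute evenly. AKR replicate 2 was the highest of the 6 arrays for 31 of 44 genes, and DBA replicate 3 was the lowest for 24. The median over the 44 genes of the value minus the gene's mean over 6 arrays was 0.02, 0.17 and 0.08 on the AKR arrays, against -0.08, -0.10 and -0.12 on the DBA arrays. The 3 AKR arrays were thus each above the 3 DBA arrays in the middle of the list, with AKR replicate 1 the nearest to them. The count of 18 fell to 8 without AKR replicate 2 (18.2%, against 7.90% of all genes), to 10 without AKR replicate 3 (22.7%, against 7.77%) and to 9 without DBA replicate 2 (20.5%, against 6.95%). Without both AKR replicate 2 and DBA replicate 3, a choice made after seeing the data, 3 genes were called (6.82%, against 3.98% of all genes), and the median over the 44 genes was 0.15. In each of these fits the 18 genes kept a difference above 0. Leaving arrays out could not change that sign, since for each of the 18 all AKR arrays lay above all DBA arrays. The 10 genes that lost their call without AKR replicate 2 were Cdc45, Cdt1, Fen1, Lig1, Mcm10, Mcm2, Pola2, Pole, Rfc2 and Rpa1, with limma adjusted p of 0.0526 to 0.139 there. With 1 array left out, Rfc5 lost its call without DBA replicate 2 and in no other case, and Chaf1b, Mcm7, Pcna, Pold2, Rrm2, Tk1 and Uhrf1 kept theirs in all 6 cases.

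**Figure D1:**
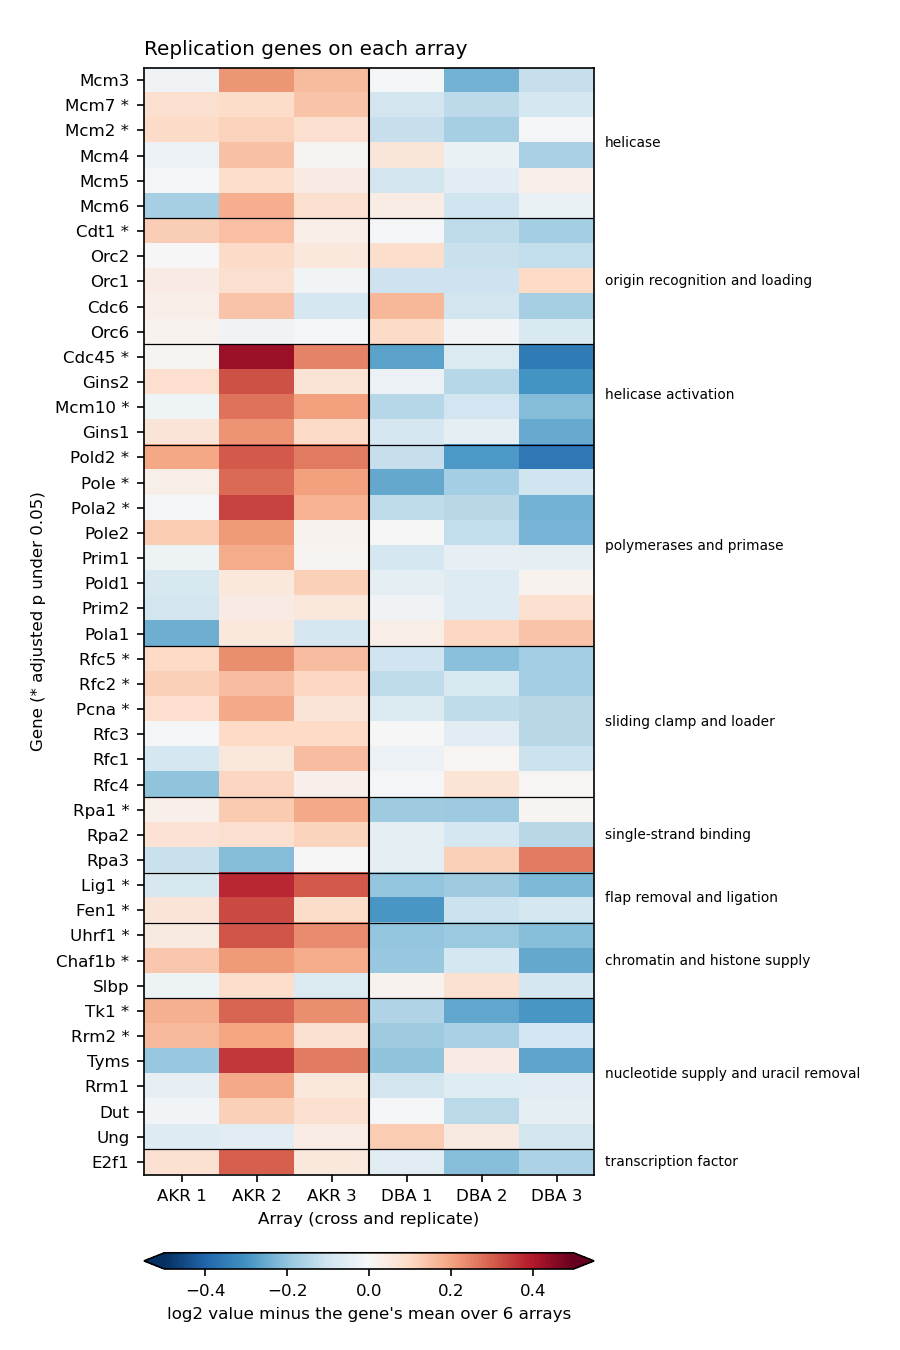
Each row is 1 of the 44 genes and each column 1 array, AKR cross left and DBA cross right, coloured by the log2 value minus the gene's mean over 6 arrays (red above, blue below) with rows in groups by role. AKR replicate 2 is the reddest column and is highest for 31 genes, and DBA replicate 3 is lowest for 24.

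Promoter sequence gives a view of the set that the expression values did not enter. The RefSeq table used here (GRCm38.p6) held a window of 300 bases, from 250 before to 50 after a transcript start, for 39 of the 45 genes. The 8-letter E2F words TTTGGCGC, TTTCGCGC, TTTGCCGC and TTTCCCGC were searched on both strands. At least 1 word lay in a window of 13 of the 39 genes (33.3%), against 2.60% of all 27025 genes in the table and 4.61% of the genes tested here. Words were found for 4 of 16 genes called higher (25%) and for 9 of 22 that were not called (40.9%), a difference that was not tested. A CCAAT box, searched on both strands as CCAAT, was in a window of 24 of 39 genes (61.5%), against 41.1% of all genes. A match is a description of the letters and not of binding.

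The 250 bases before the start of 5 genes are shown because they hold these words or stand for a strongly called gene without them, with capitals on E2F words in the first 4 and on CCAAT in the last. Mcm7, at chr5:138171884-138172133 (minus strand), and Uhrf1, at chr17:56304063-56304312 (plus strand), were called higher. Both also had another start window, without E2F words, and the window with more words before the start is shown. Mcm5, at chr8:75109259-75109508 (plus strand), was called on its second probe set only, and Mcm6, at chr1:128359706-128359955 (minus strand), was not called. Rrm2, at chr12:24708004-24708253 (plus strand), was called under every setting tried. In Mcm5, and in the first capital run of Mcm6, 2 words overlap, 1 on each strand, and in Mcm7 1 further word, after the start and not shown, overlaps a CCAAT.
Mcm7: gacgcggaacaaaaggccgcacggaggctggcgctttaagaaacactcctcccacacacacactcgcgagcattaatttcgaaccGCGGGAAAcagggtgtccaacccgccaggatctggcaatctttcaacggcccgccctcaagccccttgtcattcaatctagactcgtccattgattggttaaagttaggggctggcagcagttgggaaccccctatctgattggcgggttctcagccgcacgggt
Uhrf1: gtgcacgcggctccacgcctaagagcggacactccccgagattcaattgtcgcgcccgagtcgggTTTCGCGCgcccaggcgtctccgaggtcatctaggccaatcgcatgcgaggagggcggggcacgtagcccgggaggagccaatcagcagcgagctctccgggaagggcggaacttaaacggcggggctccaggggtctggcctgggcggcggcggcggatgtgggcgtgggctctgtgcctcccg
Mcm5: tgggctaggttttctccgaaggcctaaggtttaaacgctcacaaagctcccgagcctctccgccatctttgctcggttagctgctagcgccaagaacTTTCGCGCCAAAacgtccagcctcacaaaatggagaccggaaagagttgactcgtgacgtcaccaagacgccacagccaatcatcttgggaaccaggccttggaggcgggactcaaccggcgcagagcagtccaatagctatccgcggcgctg
Mcm6: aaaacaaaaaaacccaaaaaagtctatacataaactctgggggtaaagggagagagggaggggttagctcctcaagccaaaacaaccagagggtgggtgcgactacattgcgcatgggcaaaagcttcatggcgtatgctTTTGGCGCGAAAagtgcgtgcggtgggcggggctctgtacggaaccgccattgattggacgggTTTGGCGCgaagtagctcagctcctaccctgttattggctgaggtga
Rrm2: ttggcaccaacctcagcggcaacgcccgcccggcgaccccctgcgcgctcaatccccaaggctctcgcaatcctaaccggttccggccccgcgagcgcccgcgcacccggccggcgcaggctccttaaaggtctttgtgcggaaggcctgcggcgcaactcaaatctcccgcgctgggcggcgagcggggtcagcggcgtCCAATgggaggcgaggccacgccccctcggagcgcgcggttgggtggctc

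Among the nucleotide supply genes, Tk1 and Rrm2 were higher in the AKR cross. Tk1 encodes cytosolic thymidine kinase, which salvages thymidine and is made in S phase. Tk1 read 9.25, 9.36 and 9.31 on the AKR arrays, against 8.92, 8.82 and 8.79 on the DBA arrays. The groups were well apart, and Tk1 was 1.38-fold higher, a difference of 0.47 ± 0.07 (SE, limma adjusted p = 0.00277). Rrm2 encodes the S-phase small subunit of ribonucleotide reductase, which turns ribonucleotides into deoxyribonucleotides. Rrm2 read 12.20, 12.23 and 12.11 on the AKR arrays, against 11.86, 11.87 and 11.94 on the DBA arrays. It differed by 0.29 ± 0.05 (SE, limma adjusted p = 0.00387), and its 2 other probe sets were called too, at 0.52 ± 0.05 (SE, limma adjusted p over all probe sets = 0.000188) and 0.21 ± 0.05 (SE, limma adjusted p over all probe sets = 0.0162). All 3 probe sets kept the crosses apart.

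The other nucleotide genes had smaller or noisier differences. Rrm1, the large subunit of ribonucleotide reductase, differed by 0.14 ± 0.07 (SE, limma adjusted p = 0.165), with a 95% interval of -0.01 to 0.29. Tyms, thymidylate synthase, read 6.79, 7.33 and 7.23 on the AKR arrays, against 6.77, 7.01 and 6.71 on the DBA arrays, without a call (0.28 ± 0.15 SE, limma adjusted p = 0.199). Its AKR replicate 1 lay among the DBA arrays. Dut, the dUTPase that keeps uracil out of DNA, was not called on its brightest probe set (0.12 ± 0.06 SE, limma adjusted p = 0.163) and was called higher on the other (0.32 ± 0.10 SE, limma adjusted p over all probe sets = 0.0426). Ung, the glycosylase that removes uracil from DNA, differed by -0.05, 95% interval -0.25 to 0.14.

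The MCM helicase is a ring of 6 related subunits, Mcm2 to Mcm7, and 2 of its 6 genes were called (33.3%, against 12.5% of all genes called higher). Mcm7 and Mcm2 were called higher, and Mcm3, Mcm4, Mcm5 and Mcm6 were not called on their brightest probe sets. Mcm7 read 12.33, 12.34 and 12.39 on the AKR arrays, against 12.16, 12.12 and 12.16 on the DBA arrays, a difference of 0.21 ± 0.04 (SE, limma adjusted p = 0.00791). The gap was small, 1.15-fold, but the spread within each cross was smaller still, and 2 of the 3 other Mcm7 probe sets were called higher, the larger at 0.38 ± 0.06 (SE, limma adjusted p over all probe sets = 0.00189). Mcm2 read 10.43, 10.45 and 10.41 on the AKR arrays, against 10.22, 10.17 and 10.32 on the DBA arrays, with a difference of 0.19 ± 0.06 (SE, limma adjusted p = 0.0495), close to the threshold, and its other probe set gave 0.24 ± 0.07 (SE, limma adjusted p over all probe sets = 0.0312).

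For Mcm3 and Mcm5 the probe sets disagreed about the call. Mcm3 on its brightest probe set differed by 0.24 ± 0.08 (SE, limma adjusted p = 0.063), and 2 of its 3 other probe sets were called higher, at 0.31 ± 0.08 (SE, limma adjusted p over all probe sets = 0.0208) and 0.27 ± 0.07 (SE, limma adjusted p over all probe sets = 0.0162). All 4 had a difference above 0. Mcm5 differed by 0.08 ± 0.06 (SE, limma adjusted p = 0.325) on a probe set whose name ends in _x_at, the array maker's mark for probes that can match other transcripts. The brightest probe sets of Rrm2 and Fen1, both called higher, carry the same mark. On its other tested probe set Mcm5 read 10.16, 10.39 and 10.31 on the AKR arrays, against 9.92, 9.82 and 9.90 on the DBA arrays, and was called higher (0.41 ± 0.07 SE, limma adjusted p over all probe sets = 0.00409). Mcm4 (0.09, 95% interval -0.08 to 0.26) and Mcm6 (0.06, 95% interval -0.13 to 0.26) were not called on any probe set, and in both the second probe set had a difference below 0.

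All 4 helicase activation genes had their AKR arrays above their DBA arrays, and 2 were called. Over all genes tested, 24.5% had all AKR arrays above all DBA arrays, and 12.5% were called higher. Cdc45, a partner of the MCM ring in the active helicase, read 8.18, 8.59 and 8.41 on the AKR arrays, against 7.90, 8.09 and 7.81 on the DBA arrays. Its values scattered within both crosses and yet did not overlap, and the difference was 0.46 ± 0.12 (SE, limma adjusted p = 0.0236), 1.38-fold. The other Cdc45 probe set, with a difference of 0.21, was not called. Mcm10, which helps start the helicase and binds polymerase alpha, read 8.22, 8.51 and 8.45 on the AKR arrays, against 8.10, 8.14 and 8.02 on the DBA arrays. It differed by 0.31 ± 0.10 (SE, limma adjusted p = 0.0452), and 1 of its 2 other probe sets was called higher, at 0.38 ± 0.10 (SE, limma adjusted p over all probe sets = 0.0222). That dim probe set was above the 40th percentile on 3 AKR arrays and 0 DBA arrays. It passed the filter through the AKR cross only, so its call is no check on Mcm10. The GINS subunits Gins2 (0.31 ± 0.10 SE, limma adjusted p = 0.0568) and Gins1 (0.26 ± 0.09 SE, limma adjusted p = 0.0588) fell just outside the threshold.

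The origin recognition and loading genes held the fewest calls of the larger groups, 1 of 5 (20%, against 12.5% of all genes called higher). Cdt1, the loader of MCM that is destroyed once S phase starts, read 10.82, 10.85 and 10.73 on the AKR arrays, against 10.69, 10.57 and 10.53 on the DBA arrays. It differed by 0.20 ± 0.06 (SE, limma adjusted p = 0.0452), and its second probe set by 0.38 ± 0.08 (SE, limma adjusted p over all probe sets = 0.00609). Both probe sets kept the crosses apart. Cdc6, which works with Cdt1, differed by 0.06, 95% interval -0.17 to 0.29, and the origin recognition subunits Orc1 (0.07, 95% interval -0.14 to 0.28), Orc2 (0.10, 95% interval -0.10 to 0.30) and Orc6 (-0.0040, 95% interval -0.17 to 0.17) were not called on any probe set. With the mean of its probe sets Orc2 gave -0.07. These intervals exclude a 1.5-fold difference in either direction, but not a smaller one.

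Of the 8 polymerase and primase genes, Pold2, Pole and Pola2 were called higher (37.5%, against 12.5% of all genes). Pold2, an accessory subunit of polymerase delta, read 9.13, 9.25 and 9.20 on the AKR arrays, against 8.83, 8.65 and 8.58 on the DBA arrays. It had the largest difference of the 44 genes, 0.51 ± 0.08 (SE, limma adjusted p = 0.0037), which was 1.42-fold. Pole, the catalytic subunit of the leading-strand polymerase epsilon, read 8.51, 8.77 and 8.69 on the AKR arrays, against 8.23, 8.32 and 8.39 on the DBA arrays, and differed by 0.35 ± 0.09 (SE, limma adjusted p = 0.0235). Pola2, the B subunit of polymerase alpha, read 8.60, 8.94 and 8.78 on the AKR arrays, against 8.48, 8.46 and 8.37 on the DBA arrays, and differed by 0.34 ± 0.10 (SE, limma adjusted p = 0.0348). In Pole and Pola2 the lowest AKR array was replicate 1, and it stayed above every DBA array.

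The catalytic subunit of polymerase alpha, Pola1, had a difference below 0. It read 8.86, 9.15 and 9.02 on the AKR arrays, against 9.13, 9.20 and 9.24 on the DBA arrays, with the groups overlapping, and was not called (-0.18 ± 0.09 SE, limma adjusted p = 0.159). Pold1, the catalytic subunit of polymerase delta, gave 2 answers: 0.06 ± 0.07 (SE, limma adjusted p = 0.567) on its brightest probe set, which carries the _x_at mark, and 0.52 ± 0.08 (SE, limma adjusted p over all probe sets = 0.00228) on the other. On that second probe set Pold1 read 8.89, 9.12 and 9.12 on the AKR arrays, against 8.50, 8.52 and 8.54 on the DBA arrays, a gap as wide as that of Pold2. Pole2, a small subunit of polymerase epsilon, had all AKR arrays above all DBA arrays without a call (0.24 ± 0.09 SE, limma adjusted p = 0.0847). The primase genes, whose products lay down the RNA primers, were not called, with Prim1 at 0.12, 95% interval -0.04 to 0.28, and Prim2 at 0.0024, 95% interval -0.18 to 0.18.

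**Figure D2:**
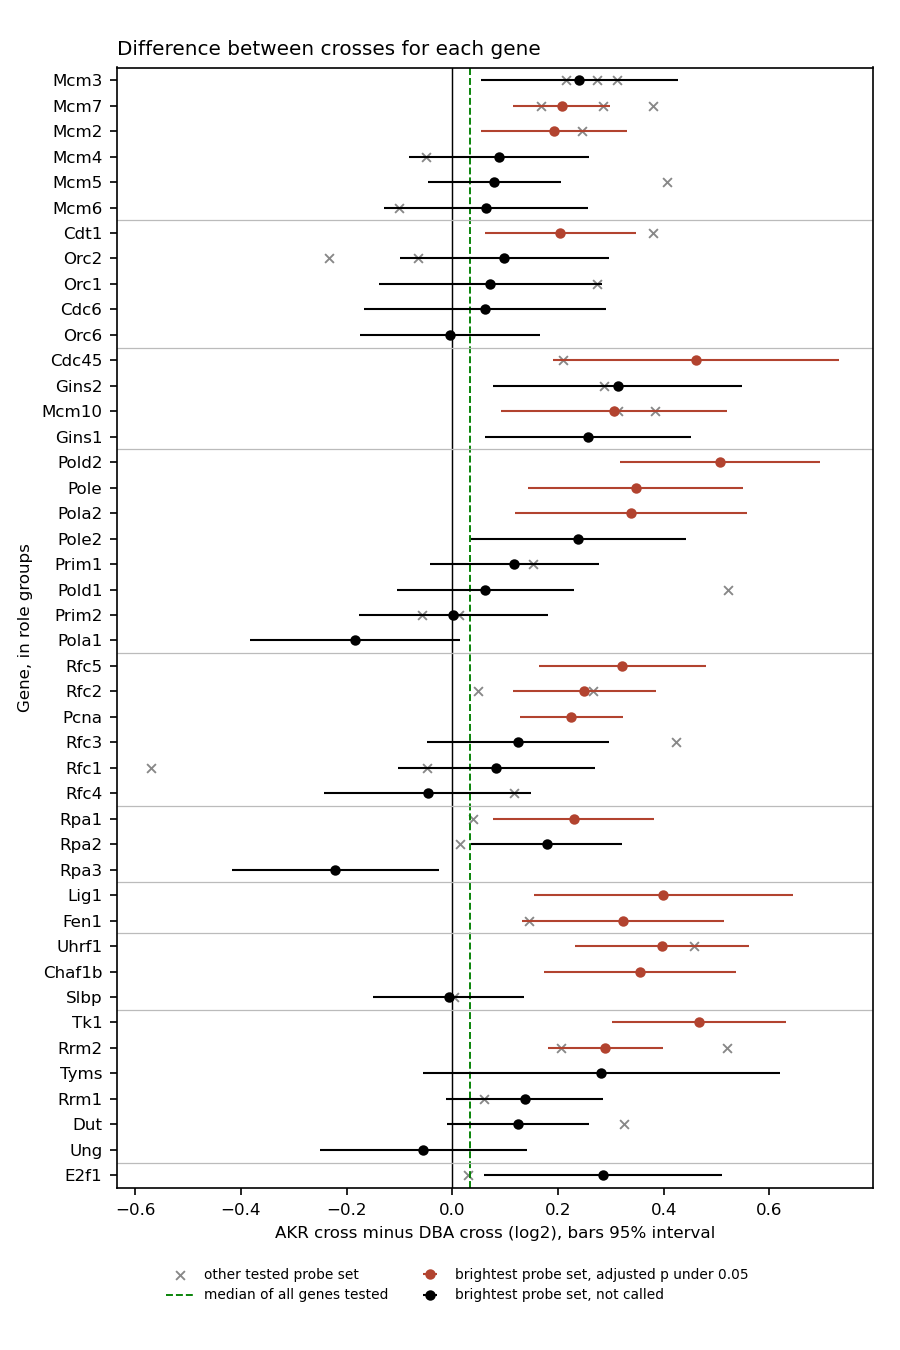
The horizontal axis gives AKR cross minus DBA cross in log2 units for each gene in role groups, with circles for the brightest probe set, bars for its 95% interval, crosses for other tested probe sets and a dashed line at the median of all genes (0.03). The 18 called genes all lie right of 0, and crosses for Mcm5, Pold1, Rfc3 and Dut lie well right of their circles.

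The sliding clamp and its loader were both represented among the calls. Pcna, the ring that holds polymerases on DNA, read 13.34, 13.45 and 13.32 on the AKR arrays, against 13.18, 13.13 and 13.12 on the DBA arrays. It differed by 0.23 ± 0.04 (SE, limma adjusted p = 0.00689), only 1.17-fold, with tight groups. Rfc5 and Rfc2 are small subunits of replication factor C, which opens the clamp. Rfc5 read 9.42, 9.55 and 9.47 on the AKR arrays, against 9.22, 9.11 and 9.15 on the DBA arrays, a difference of 0.32 ± 0.07 (SE, limma adjusted p = 0.0118). Rfc2 read 10.09, 10.12 and 10.07 on the AKR arrays, against 9.84, 9.89 and 9.79 on the DBA arrays, a difference of 0.25 ± 0.06 (SE, limma adjusted p = 0.0174), and its 2 dimmer probe sets were not called. Both loader genes kept the crosses apart by more than the range within either cross.

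The remaining loader subunits were not called on their brightest probe sets. Rfc3 differed by 0.12 ± 0.08 (SE, limma adjusted p = 0.26) there and by 0.42 ± 0.08 (SE, limma adjusted p over all probe sets = 0.0037) on its second probe set. Rfc4 differed by -0.05, 95% interval -0.24 to 0.15. Rfc1, the large subunit, differed by 0.08, 95% interval -0.10 to 0.27, but its dimmest probe set averaged 7.16 ± 0.20 for AKR thymus and 7.73 ± 0.06 for DBA thymus (SD, n = 3 each), and was called lower (-0.57 ± 0.11 SE, limma adjusted p over all probe sets = 0.00591). It was the only member probe set of 82 tested to be called lower, and the Rfc1 probe sets thus do not give 1 direction for the gene.

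Replication protein A, the trimer that coats single-stranded DNA, had 1 of its 3 genes called higher (33.3%, against 12.5% of all genes). No difference between subunits was tested. Rpa1, the large subunit, read 11.79, 11.89 and 11.95 on the AKR arrays, against 11.58, 11.58 and 11.78 on the DBA arrays, with DBA replicate 3 level with AKR replicate 1. The difference was 0.23 ± 0.07 (SE, limma adjusted p = 0.0373), and the second Rpa1 probe set, at 0.04, was not called. Rpa2 had its crosses apart and was not called (0.18 ± 0.06 SE, limma adjusted p = 0.0713). Rpa3, the smallest subunit, had the lowest difference of the 44 genes and read 10.57, 10.46 and 10.67 on the AKR arrays, against 10.63, 10.80 and 10.94 on the DBA arrays. It was not called (-0.22 ± 0.09 SE, limma adjusted p = 0.0937), but it was called lower without DBA replicate 1.

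Both genes of lagging-strand maturation were higher in the AKR cross. Fen1, the nuclease that trims the flaps of Okazaki fragments, read 11.02, 11.29 and 11.05 on the AKR arrays, against 10.67, 10.85 and 10.87 on the DBA arrays, and differed by 0.32 ± 0.08 (SE, limma adjusted p = 0.0241). That Fen1 probe set carries the _x_at mark, and the second, at 0.15 and without the mark, was not called. Lig1, the ligase that seals the fragments, read 10.09, 10.54 and 10.47 on the AKR arrays, against 9.97, 9.99 and 9.94 on the DBA arrays. It differed by 0.40 ± 0.11 (SE, limma adjusted p = 0.0277), with AKR replicates 2 and 3 standing above replicate 1.

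Of the genes that rebuild chromatin behind the fork, Uhrf1 and Chaf1b were called. Uhrf1, which binds hemimethylated DNA and brings in the maintenance methyltransferase, read 10.75, 11.02 and 10.94 on the AKR arrays, against 10.51, 10.52 and 10.49 on the DBA arrays. It was 1.32-fold higher (0.40 ± 0.07 SE, limma adjusted p = 0.0057), and its other probe set gave 0.46 ± 0.09 (SE, limma adjusted p over all probe sets = 0.00638). The DBA arrays were nearly level and the AKR arrays scattered above them. Chaf1b, a subunit of the histone chaperone CAF-1, read 8.28, 8.36 and 8.33 on the AKR arrays, against 7.96, 8.06 and 7.89 on the DBA arrays, a difference of 0.35 ± 0.08 (SE, limma adjusted p = 0.0141). Slbp, which binds the stem-loop of histone messages, was not called, with 11.29 ± 0.08 for AKR thymus and 11.29 ± 0.08 for DBA thymus (SD, n = 3 each), a difference of -0.0070, 95% interval -0.15 to 0.14.

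Apart from the fork itself the set holds E2f1, a transcription factor that drives S-phase genes. E2f1 read 7.32, 7.54 and 7.30 on the AKR arrays, against 7.19, 7.03 and 7.09 on the DBA arrays. The groups did not overlap, but the difference was not called (0.29 ± 0.10 SE, limma adjusted p = 0.0661), and the second probe set differed by 0.03.

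**Figure D3:**
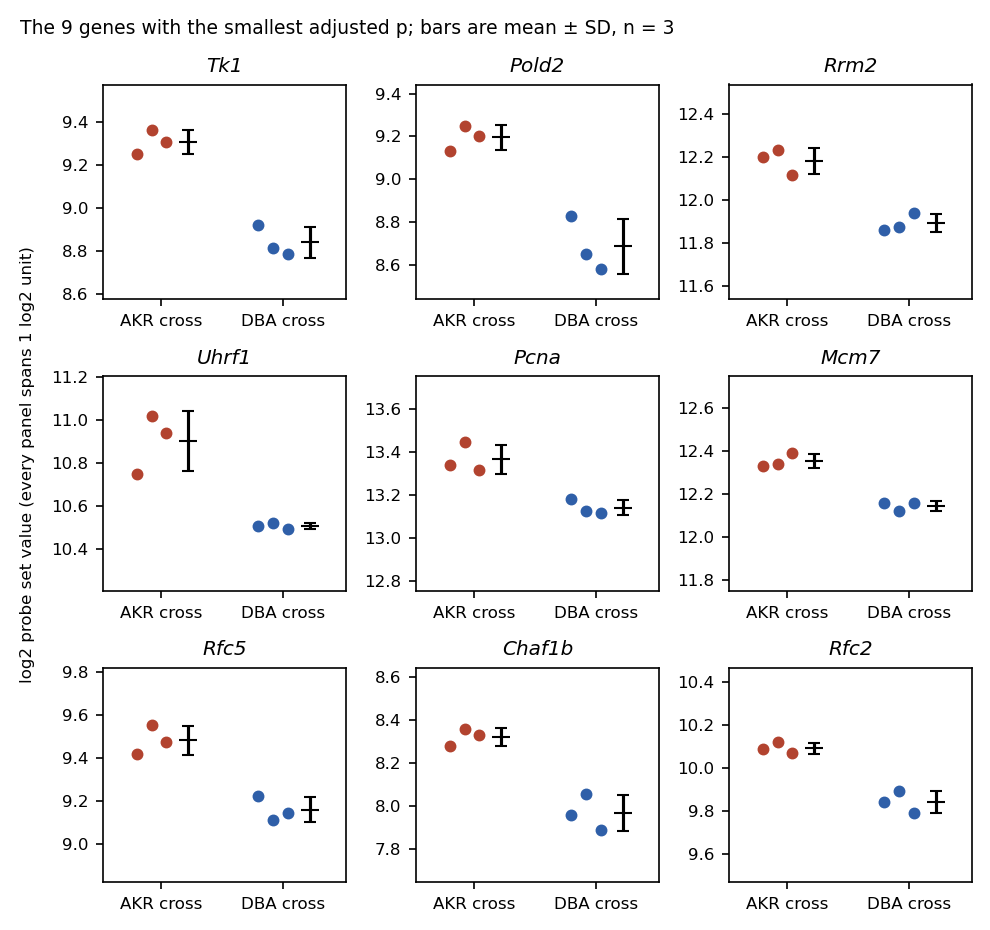
Log2 probe set values on each array for the 9 genes with the smallest adjusted p, AKR cross left and DBA cross right in each panel, with bars for mean ± SD (n = 3). Panels span 1 log2 unit each, and in all 9 the AKR arrays lie above the DBA arrays, from 0.21 for Mcm7 to 0.51 for Pold2.

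Other probe sets of the genes were a partial check, since they share the RNA samples. Of 82 tested probe sets for the 44 genes, 32 (39%) were called higher and 1 lower, against 12.2% and 15% of all 27385 probe sets tested. In either direction 33 (40.2%) were called, against 27.2%. Of the 38 that were not the brightest of their gene, 31 had a difference above 0, 14 were called higher and 1 lower. The 14 include the Mcm10 probe set that passed the filter through the AKR cross only. Among 10 called genes with other tested probe sets, 4 were called on every one, and for Cdc45, Fen1, Rfc2 and Rpa1 no other was called. Dut, Mcm3, Mcm5, Pold1 and Rfc3 were called higher on another probe set only.

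Genes of the same processes outside the 45 were counted in 6 further lists. Of 89 tested genes in these lists, 18 (20.2%) were called higher in the AKR cross and 5 (5.62%) lower, against 12.5% and 11.5% of all genes. Their median difference was 0.11, against 0.03 over all genes. No list was tested against these shares. In the list of fork and lagging-strand proteins 8 of 18 (44.4%) were higher and 2 (11.1%) lower at an unadjusted p under 0.05. Over all genes these shares were 20.5% and 17.3%. At the adjusted threshold 4 of the 18 (22.2%) were higher and 0 lower, with a median of 0.15. Chtf8 (0.91 ± 0.09 SE, limma adjusted p = 0.000287) and Chtf18 (0.40 ± 0.11 SE, limma adjusted p = 0.0279), subunits of an alternative clamp loader, and Pold4 (0.44 ± 0.09 SE, limma adjusted p = 0.00738), the smallest subunit of polymerase delta, were among them. Chtf8 read 9.89, 9.82 and 10.06 on the AKR arrays, against 9.10, 9.06 and 8.90 on the DBA arrays, a gap of 1.87-fold, wider than that of any of the 44 genes. Licensing and firing genes had 1 of 18 higher (5.56%, against 12.5% of all genes), 1 lower (5.56%, against 11.5%) and a median of 0.07. They were Ccne1 (0.64 ± 0.13 SE, limma adjusted p = 0.00816), cyclin E1 of the entry into S phase, and Topbp1 (-0.34 ± 0.10 SE, limma adjusted p = 0.0348), a scaffold of origin firing and checkpoint signalling, whose difference was 0.08 as the mean of its probe sets.

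Among the other chromatin copying genes 2 of 7 (28.6%, against 12.5% of all genes) were higher, 0 were lower, and the median was -0.01. These were Asf1b (0.40 ± 0.08 SE, limma adjusted p = 0.00825), a histone chaperone, and Dnmt1 (0.31 ± 0.07 SE, limma adjusted p = 0.012), the maintenance DNA methyltransferase that works with Uhrf1. Deoxynucleotide supply and salvage genes had 3 of 16 higher (18.8%, against 12.5% of all genes), 1 lower and a median of 0.09. Shmt2 (0.66 ± 0.10 SE, limma adjusted p = 0.00258) and Shmt1 (0.50 ± 0.12 SE, limma adjusted p = 0.0176) provide carbon units for thymidylate synthesis, and Dguok (0.29 ± 0.07 SE, limma adjusted p = 0.0191) is the mitochondrial deoxyguanosine kinase. Dck, deoxycytidine kinase, was the lower gene (-0.22 ± 0.06 SE, limma adjusted p = 0.0347), named after its value was seen. Ribonucleotide synthesis genes had 3 of 16 higher (18.8%, against 12.5% of all genes), 1 lower and a median of 0.16. Impdh1 (0.39 ± 0.06 SE, limma adjusted p = 0.0033), of guanine nucleotide synthesis, and Ctps (0.41 ± 0.07 SE, limma adjusted p = 0.00418), CTP synthase, were higher, and Prps2 (-0.26 ± 0.05 SE, limma adjusted p = 0.00486), which makes the ribose phosphate precursor, was lower.

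The E2F and RB family had the most calls of the 6 lists, with 5 of 14 (35.7%) higher, 2 (14.3%) lower and a median of 0.21. Over all genes 12.5% were higher and 11.5% lower. E2f4 read 8.50, 8.59 and 8.51 on the AKR arrays, against 7.97, 7.99 and 7.98 on the DBA arrays, and E2f2 read 10.53, 10.54 and 10.43 on the AKR arrays, against 10.16, 10.13 and 10.14 on the DBA arrays. Both were apart between crosses with little scatter, by 0.56 ± 0.07 (SE, limma adjusted p = 0.00136) for E2f4, known mainly as a repressor, and by 0.36 ± 0.06 (SE, limma adjusted p = 0.00326) for E2f2, an activator. Mybl2, a cell cycle transcription factor, differed by 0.63 ± 0.11 (SE, limma adjusted p = 0.00409). The 2 lower genes, named after their values were seen, were Rbl2 (-0.48 ± 0.09 SE, limma adjusted p = 0.00568), the RB relative p130 of resting cells, and Tfdp2 (-0.35 ± 0.07 SE, limma adjusted p = 0.0107), a dimer partner of E2F.

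**Figure D4:**
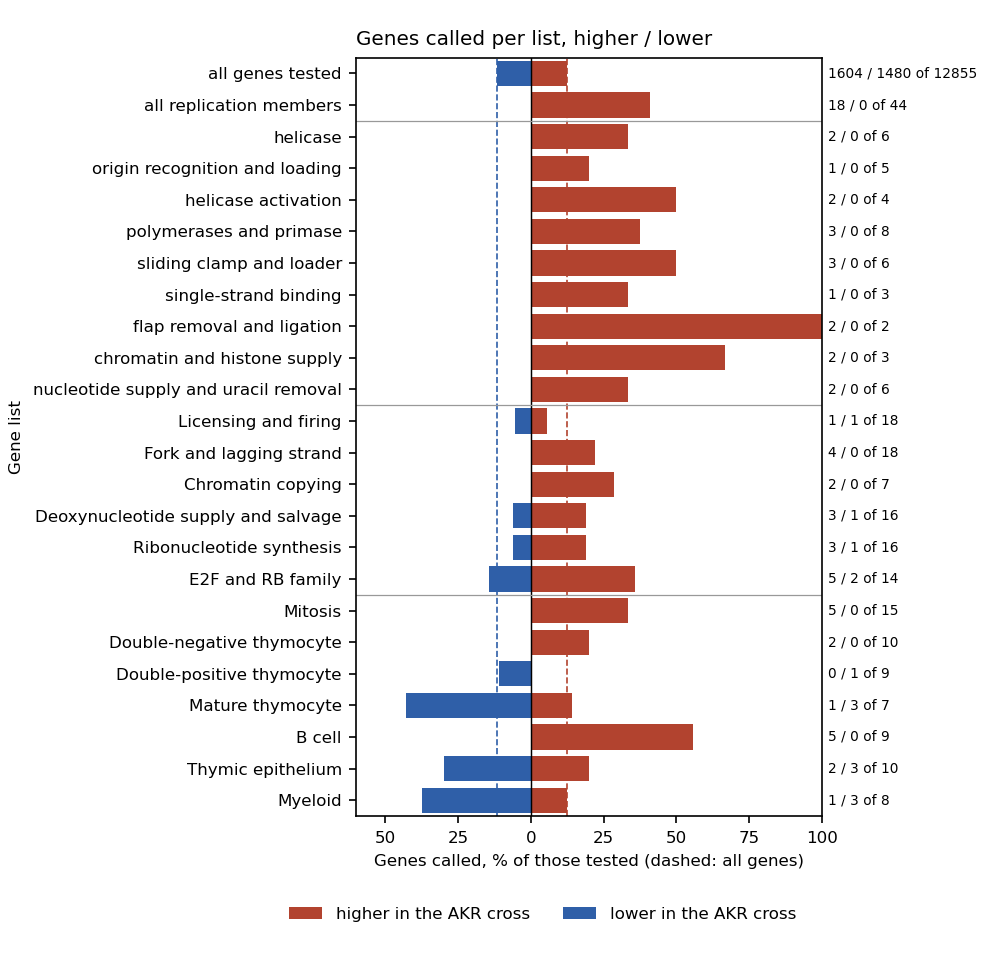
Bars give the percent of tested genes called higher (right, red) and lower (left, blue) in the AKR cross for each list, with counts at the right edge and dashed lines at the shares over all genes, 12.5% and 11.5%. All replication members show 18 higher and 0 lower of 44, and mitosis and B cell lists also lean right.

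Markers of division and of other cells were counted in the same way. Of 15 mitosis genes 5 (33.3%) were higher and 0 lower, against 12.5% and 11.5% of all genes. Their median was 0.17, against 0.03 over all genes. The called genes with the smallest p were Plk1 (0.55 ± 0.10 SE, limma adjusted p = 0.00597), Aurkb (0.39 ± 0.08 SE, limma adjusted p = 0.00865) and Birc5 (0.28 ± 0.06 SE, limma adjusted p = 0.0126), all with mitotic functions. Summed linear values of the list ranged over 17270 to 19790 on the AKR arrays and 16330 to 17160 on the DBA arrays. The arrays stood in the mitosis list at -0.01, 0.17 and 0.06 in the AKR cross, against -0.14, -0.01 and -0.05 in the DBA cross, with AKR replicate 2 again the highest. For the 44 replication genes the sums ranged over 58500 to 64060 on the AKR arrays and 53270 to 54110 on the DBA arrays. Mki67, the common proliferation marker, was not among the called genes (0.01 ± 0.06 SE, limma adjusted p = 0.89), nor was Top2a, the topoisomerase of dividing cells (0.02 ± 0.06 SE, limma adjusted p = 0.861), and both were named after their values were seen.

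Of 10 markers of double-negative thymocytes, the immature cells that divide, 2 (20%) were higher and 0 lower, with a median of 0.19. Their sums were 2576 to 2800 on the AKR arrays and 2374 to 2571 on the DBA arrays. For this and the next lists, the shares over all genes tested were 12.5% higher and 11.5% lower. No list was tested against these shares. Double-positive markers had 0 of 9 higher and 1 lower, with a median of 0.04 and sums of 37780 to 41270 on the AKR arrays and 38540 to 39820 on the DBA arrays. Mature thymocyte markers had 1 of 7 higher and 3 lower, with a median of -0.40 and sums of 3098 to 4266 on the AKR arrays and 4394 to 5063 on the DBA arrays. Of 9 B cell markers 5 were higher and 0 lower, with a median of 0.43 and sums of 1695 to 1791 on the AKR arrays and 1294 to 1379 on the DBA arrays. Of the 9, 3 were below the 40th percentile on at least 1 array. Among these were Cr2 and Pax5, both called higher. Each was above that percentile on 3 AKR arrays and 1 DBA array, so the AKR arrays carried it through the filter. Thymic epithelial markers had 2 of 10 higher, 3 lower and a median difference of -0.15, while their sums, 25590 to 26510 in the AKR cross and 22880 to 24080 in the DBA cross, ran the other way. Myeloid markers had 1 of 8 higher, 3 lower and a median difference of -0.17, with 3 of 8 above 0, while their sums overlapped (8816 to 9640 in the AKR cross and 8633 to 9593 in the DBA cross). A sum of linear values weighs the brightest genes of a list most. Erythroid markers had 1 of 2 tested genes higher (sums of 185.8 to 377.7 in the AKR cross and 201.1 to 251.8 in the DBA cross). The called gene, Hba-a2, was above the 40th percentile on 3 AKR arrays and 0 DBA arrays. It thus passed the filter through the AKR cross only, and the uncalled gene, Alas2, differed by -0.22. At an unadjusted p under 0.05, 1 mitosis gene, 0 double-negative markers, 0 B cell markers, 0 erythroid markers and 0 of the other chromatin copying genes were lower, and 1 double-positive marker was higher. Over all genes tested, 17.3% were lower and 20.5% higher at that threshold. The part of any of these cells in the replication result was not tested. All 7 defining thymus genes looked at, Cd3e, Cd3g, Cd4, Cd8a, Rag1, Ptcra and Foxn1, were above the 40th percentile on all 6 arrays, and 2 of them, Cd3e and Foxn1, were higher in the AKR cross.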

How the data were processed

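Thymus RNA of both crosses was hybridised to single-channel Affymetrix mouse arrays. The log2 values per probe set were deposited by the authors, while per the submitters' processing notes the tools were MAS5 and RMA, with no role given, so the sources used here do not give which one made the values, nor a genome build. They ran from 2.47 to 14.4 with array medians from 5.92 to 5.95, and no pair of arrays was identical (r from 0.994 to 0.996 within a cross, 6 pairs, and 0.984 to 0.989 between crosses). The number of arrays limits the precision. Nearly equal array distributions and probe set summaries of this kind can compress the differences of dim and very bright probe sets.

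The values were used as given. After 64 of 45101 probe sets (controls) were left out, the filter kept those brighter than 40% of the array on 3 or more of the 6 arrays (27385 probe sets). Genes came from the platform annotation where it gave exactly 1 symbol. Crosses were compared by limma 3.58.1 (R 4.3.3; lmFit, then eBayes with a trend), two-sided, adjusted by Benjamini-Hochberg over all 12855 genes, or over all probe sets where said, and a threshold of 0.05. The fit was tested on simulated data with known changes and independent errors for each probe set. Recovery was required only at a log2 difference of 1, larger than that of any member. Shifts of an array shared by many genes were not simulated, so the simulation cannot vouch for the calls made here. Promoters came from RefSeq (GRCm38.p6) and figures from matplotlib 3.10.9. The members and lists were chosen with earlier results of these data known, so no test was made over a list. Values on each array are given for every called member and for E2f1, with those of Tyms, Pola1 and Rpa3 and second probe sets of Mcm5 and Pold1 added after their values were seen, and up to 3 called genes are named per other list, beside Dck, Rbl2, Tfdp2, Mki67 and Top2a, which were named after their values were seen. Alternatives were 2 filters, 3 normalizations, a floor at the 20th percentile, 3 variance models, array weights, a replicate block, 2 choices of probe set and each array left out, with 1 further omission added after seeing the data.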

Additional observations from a re-analysis of the deposited data

How the results depend on the processing

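The 18 called genes kept a difference above 0 under all 20 alternatives. For most alternatives this sign could not change. All AKR arrays of these genes lay above all DBA arrays, so no omission of arrays could reverse it. The variance models leave the difference itself as it was. Pold2, Rrm2 and Tk1 were called under all 20 alternatives, and Chaf1b, Mcm7, Pcna, Pold2, Rrm2, Tk1 and Uhrf1 with each array left out in turn. The count of members higher fell from 18 to 10 with eBayes without trend, while that of all genes higher went from 1604 to 1446. Without sharing of variance 8 members and 726 of all genes were higher. With 1 array left out these were 8 to 18 members and 893 to 1422 of all genes. Without AKR replicate 2 and DBA replicate 3 they were 3 members and 512 of all genes. Under the other alternatives 15 to 23 members were higher. With the replicate block 22 members were higher and 1 (Rpa3) was lower. Of all genes 4194 were called there, 2177 of them higher. Correlations of deviations between same-numbered arrays were 0.368, 0.00330 and 0.382 for replicates 1, 2 and 3. Those of replicates 1 and 3 were the highest of any pair, and all other pairs ran from -0.411 to 0.153. AKR replicate 2 correlated best with DBA replicate 1 (0.0655). Replicates 1 and 3 thus went together by number and replicate 2 did not, and what the numbers share was not tested. Members lower ranged from 0 to 1 with 1 array left out. All genes called (3084) came to 1367 without sharing of variance, 1843 to 2519 with 1 array left out and 1093 without both. Those higher (1604) came to 726, 893 to 1422 and 512, and those lower (1480) to 641, 948 to 1200 and 581. With quantile normalization 62% of calls were higher, against 52%. Other replication genes higher (18) ranged from 13 to 21 with 1 array left out and came to 11 without both. Those lower (5) came to 3 with eBayes without trend, 3 without sharing of variance, 10 with the replicate block, 9 with the mean of probe sets, 3 to 5 with 1 array left out and 2 without both. Called markers (28) came to 12 without sharing of variance, 19 to 23 with 1 array left out and 12 without both. Signs changed for uncalled members near 0. With the mean of probe sets the difference was -0.019 for Mcm6, -0.066 for Orc2, -0.014 for Prim2, -0.18 for Rfc1 and 0.035 for Rfc4. Outside the members it was -0.10 for Gmps and 0.079 for Topbp1. Both signs were reversed there, although Gmps had been called higher and Topbp1 lower on their brightest probe sets (limma adjusted p = 0.0455 and 0.0348). With median centring, quantile normalization and cyclic loess Orc6 gave 0.012, 0.033 and 0.0050 and Slbp 0.0088, 0.011 and 0.010, Rfc4 gave 0.0040 with quantile normalization, and Orc6 gave 0.00085 with array weights. With arrays left out the differences ranged from -0.062 to 0.16 for Cdc6, -0.021 to 0.14 for Mcm4, -0.012 to 0.16 for Mcm6, -0.042 to 0.042 for Orc6, -0.029 to 0.050 for Prim2, -0.12 to 0.042 for Rfc4 and -0.098 to 0.030 for Slbp. Why the counts moved was not tested, beyond the smaller number of arrays when some are left out.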
